A study of Homo sapiens with 18 samples.

Results

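The regions described here are the protein-coding genes with a span of 500 kb or more, taken from the gene records of GENCODE on chromosomes 1 to 22 of hg19, without RUNX1 and RARB. There were 308 such genes among 19227 protein-coding genes on these chromosomes. HL-60/S4 cells, an established human myeloid leukemia line, were used undifferentiated to map the linker histones H1.2 and H1.5, with a rabbit antibody against either variant. In xChIP-seq, formaldehyde-fixed chromatin was sonicated before the antibody was added. In xxChIP-seq, the antibody was bound inside permeabilized fixed cells and fixed in place, and sonication followed. This gave 4 groups of 3 samples, named by protocol and antibody (xChIP H1.2 and H1.5, xxChIP H1.2 and H1.5), all from the same untreated line, and for each group the authors deposited 1 list of enriched regions (peaks) merged over its 3 replicates. Coverage below is the percentage of known bases of a region that lie inside a peak of a list. With a single merged list per group and an unknown depth, these lists give no replicate error for any value. The reads of the replicates were not analysed, so no comparison was tested, and spread is given over genes or over chromosomes.

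Linker histones bind the nucleosome where DNA enters and leaves it and help nucleosome arrays to fold, and the somatic variants such as H1.2 and H1.5 differ mainly in their tails. Very long human genes consist almost entirely of introns. Many of them encode adhesion molecules, receptors and channels of neurons, several span common fragile sites, and others encode signalling and traffic proteins used in many cell types.

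Sequences just before genes with extreme coverage are shown to make their base composition visible. They are given from hg19 in the direction of the gene, with each CG dinucleotide in capitals. Shown are the 200 bases just before the gene record of CEP112 (chr17:64188252-64188451, minus strand), the gene most covered by xxChIP H1.2 peaks, of GSE1 (chr16:85202931-85203130, plus strand), the gene least covered by that list, and of CALN1 (chr7:71912137-71912336, minus strand), the gene most covered by xChIP H1.2 peaks. No annotated exon overlapped any of these 3 windows.
CEP112 start: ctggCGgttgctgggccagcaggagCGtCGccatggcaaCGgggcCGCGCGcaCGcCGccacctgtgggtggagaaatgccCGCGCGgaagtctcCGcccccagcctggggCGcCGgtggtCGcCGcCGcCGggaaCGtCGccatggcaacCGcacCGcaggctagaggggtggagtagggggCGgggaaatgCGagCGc
GSE1 start: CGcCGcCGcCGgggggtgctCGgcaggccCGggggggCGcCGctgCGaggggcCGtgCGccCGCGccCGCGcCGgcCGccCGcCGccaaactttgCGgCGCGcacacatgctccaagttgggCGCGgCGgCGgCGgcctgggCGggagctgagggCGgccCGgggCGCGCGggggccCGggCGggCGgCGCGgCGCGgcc
CALN1 start: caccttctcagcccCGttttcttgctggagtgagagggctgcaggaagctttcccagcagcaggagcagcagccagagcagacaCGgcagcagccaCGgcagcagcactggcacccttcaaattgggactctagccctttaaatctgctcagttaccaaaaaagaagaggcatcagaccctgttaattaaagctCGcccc
The start of CEP112 held 26 CG dinucleotides and that of GSE1 held 40, whereas the start of CALN1 held 4. The letters CG read the same on both strands. At least 1 CG was found in 92.5% of the starts of the 308 genes (median 13 per 200 bases) and in 95.02% of the starts of all 19227 protein-coding genes (median 12). Of peak centres inside the long genes, a CG was found in 71.7% of 11107 for xChIP H1.2, 67.3% of 11477 for xChIP H1.5, 66.3% of 13780 for xxChIP H1.2 and 67.4% of 13810 for xxChIP H1.5, with a median of 1 in each list. The median GC content was 62% at the starts of the 308 genes, 39.5% at xChIP H1.2 peak centres and 37.5% in the other lists. Other windows of the gene bodies were not counted, so the shares at peak centres have no comparison with them.

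The 308 genes had a median span of 715 kb, and 66 of them reached 1 Mb. The longest was RBFOX1, a regulator of splicing (ENSG00000078328, chr16:5289803-7763342, 2.47 Mb), followed by the neurexin-related adhesion gene CNTNAP2 (2305 kb), the receptor phosphatase PTPRD (2299 kb), the synaptic scaffold DLG2 (2173 kb) and CSMD1, which encodes a large membrane protein (2060 kb). The genes lay on 21 chromosomes, with 36 on chromosome 3, 27 on chromosome 7 and none on chromosome 19. Together they occupied 254 Mb, or 9.47% of the known sequence of chromosomes 1 to 22, with a GC content of 38.8%. Not all members were separate stretches of sequence: some shared bases with another member, such as RBMS3 with ENSG00000283563, FOXP1 with ENSG00000285708, and ARHGAP24 with MAPK10. For 5 members the annotation gave an identifier in place of a symbol.

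Genes on either side of the length limit had coverage inside the range of the members. ANO5, a member of the anoctamin family just inside the limit (500.9 kb), was covered to 14.4% (H1.2) and 13.8% (H1.5) with xChIP, and to 16.6% (H1.2) and 18.1% (H1.5) with xxChIP. SPOCK3, a proteoglycan gene of 501 kb, had 17.0%, 18.0%, 32.5% and 19.9%, in the same order. Just outside were DIAPH3, a formin gene (498.3 kb), with 12.7%, 7.47%, 14.5% and 8.26%, and ITPR2, a calcium channel of the endoplasmic reticulum (497.8 kb), with 8.34%, 14.3%, 17.8% and 15.3%.

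The bodies of the long genes were covered more by the xxChIP lists than by the xChIP lists. Pooled over all their bases, coverage with xChIP was 15.2% for H1.2 and 13.5% for H1.5, and with xxChIP it was 23.2% and 19.2%. The median gene was covered to 13.5% by xChIP H1.2, with quartiles of 10.8% and 19.1% and a range from 3.08% to 60.1%. For xChIP H1.5 the median was 13.0% (quartiles 10.4% and 16.2%, range 4.48% to 38.8%). The xxChIP H1.2 median was 22.4% (quartiles 15.9% and 29.3%, range 1.93% to 59.8%), and that of xxChIP H1.5 was 19.2% (quartiles 13.2% and 24.2%, range 3.24% to 45.5%). The ranges of the 4 lists overlapped over most of their length. Over the 21 chromosomes the pooled coverage was 14.7% ± 2.40 (SD, H1.2) and 13.1% ± 2.76 (H1.5) with xChIP, and 23.1% ± 4.58 (H1.2) and 19.7% ± 4.42 (H1.5) with xxChIP. Chromosomes of a merged list are not replicates of the experiment.

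**Figure D1:**
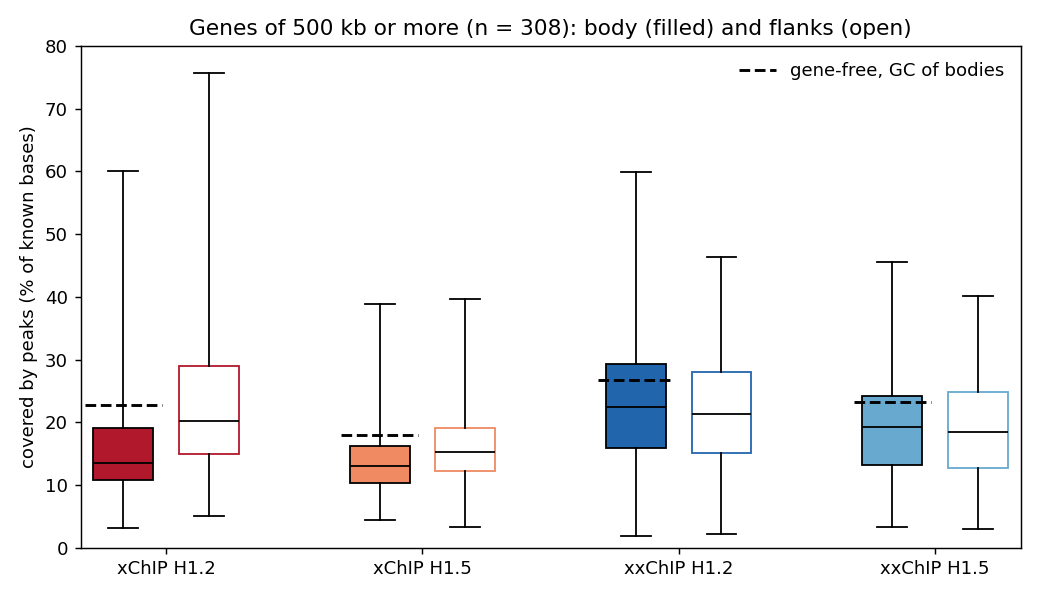
Percentage of known bases covered by peaks of each list in the bodies (filled boxes) and in the 250 kb on each side (open boxes) of the 308 genes. Boxes span the quartiles with the median as a line, whiskers run from the lowest to the highest gene, and dashed lines give gene-free sequence of the GC content of the bodies, at 22.7%, 18.0%, 26.7% and 23.3% from left to right, above the median body in each list.

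For each antibody, the xxChIP list was the higher in most long genes, and in a minority of protein-coding genes at large. The xxChIP H1.2 list covered a body more than the xChIP H1.2 list did in 220 of the 308 genes, or 71.4%, where 26.9% of the 11215 protein-coding genes of 20 kb or more had that order. For H1.5 the xxChIP list was the higher in 232 of the 308 genes, or 75.3%, against 35.7% of all 11215. Within xChIP, H1.2 coverage was above H1.5 coverage in 174 long genes, or 56.5%, against 78.7% of all. Within xxChIP it was above in 237 long genes, or 76.9%, against 58.7%. Within each protocol, H1.2 was thus the higher in most genes of both sets. These 4 counts were added after the values were seen, and the 11215 genes include the 308. Gene-free sequence of the GC content of the bodies had the protocol order of the long genes. It was covered to 22.7% (xChIP) and 26.7% (xxChIP) for H1.2, and to 18.0% and 23.3% for H1.5. Pooled genes of 200 to 500 kb had 22.2% (xChIP) and 18.8% (xxChIP) for H1.2, and 14.8% and 15.6% for H1.5.

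Coverage by the xChIP H1.2 list was lower in each longer class of genes, and coverage by both xxChIP lists was higher. In 4695 genes of 20 to 50 kb, xChIP H1.2 peaks covered 42.8% of the bodies, against 17.0% in the 242 genes of 500 kb to 1 Mb and 12.1% in the 66 genes of 1 Mb or more. For xChIP H1.5 the same classes had 16.8%, 14.1% and 12.2%. For xxChIP H1.2 they had 10.9%, 22.5% and 24.5%, and for xxChIP H1.5 8.75%, 18.7% and 20.0%. GC content moved with length, from 45.5% in the shortest class to 39.3% and 37.8% in the long ones. Set against gene-free sequence of the same GC content, the genes of 20 to 50 kb stood at 1.18 and those of 1 Mb or more at 0.598 for xChIP H1.2, at 0.915 and 0.695 for xChIP H1.5, at 0.622 and 0.863 for xxChIP H1.2, and at 0.520 and 0.818 for xxChIP H1.5. In genes of 50 to 100 kb the xChIP ratios were 1.19 (H1.2) and 0.956 (H1.5), so they did not fall with each class. Genes of 200 to 500 kb stood at 0.819, 0.799, 0.789 and 0.739 in this order of lists. Pooled coverage below gene-free sequence was therefore not particular to the long genes. Genes of 500 kb to 1 Mb stood at 0.706, 0.777, 0.873 and 0.829 in the same order. Between the classes of long genes the pooled ratios of the xxChIP lists were thus nearly level, while the median over genes was 0.868 below 1 Mb and 0.926 from 1 Mb for H1.2, and 0.793 and 0.827 for H1.5. The length classes were chosen after values were seen, and the part of other properties that go with length was not tested.

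**Figure D2:**
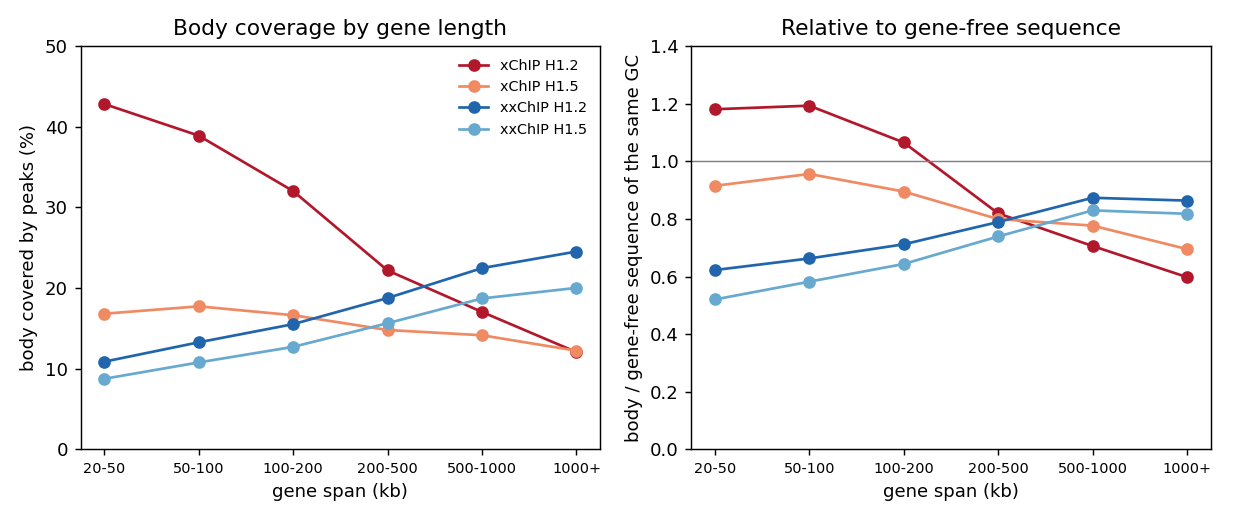
Left, percentage of gene bodies covered by peaks of each list in 6 classes of gene span in kb; right, the same coverage divided by that of gene-free sequence of the same GC content, with a grey line at 1. The members are the classes from 500 kb upwards, where xChIP H1.2 stands at 17.0% and 12.1% and xxChIP H1.2 at 22.5% and 24.5%.

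Against gene-free sequence the long genes were covered less by the xChIP lists when covered bases were counted, and no direction is given for the xxChIP lists, whose ratios lay within 1 SD of 1 over chromosomes. Gene-free sequence was taken from 77605 windows of 10 kb without a gene of any class, grouped by GC content in steps of 1%, and each stretch of a gene was set against windows of its own GC content. Pooled coverage of the bodies was 0.671 times that of gene-free sequence for xChIP H1.2, 0.748 times for xChIP H1.5, 0.869 times for xxChIP H1.2 and 0.825 times for xxChIP H1.5. Single genes lay below 1 in 250 of 308 cases for xChIP H1.2 (81.2%), where 54.1% of the 11215 protein-coding genes did, and also in 250 for xChIP H1.5 (81.2%, against 66.6%). For xxChIP H1.2 it was 209 genes (67.9%, against 78.8%) and for xxChIP H1.5 222 (72.1%, against 82.4%). Over the 21 chromosomes the ratio was 0.637 ± 0.188 (SD, H1.2) and 0.724 ± 0.159 (H1.5) with xChIP, and 0.909 ± 0.211 (H1.2) and 0.892 ± 0.262 (H1.5) with xxChIP. The 23 genes of chromosome 4 were the exception for xChIP H1.2, at 1.13, whereas all 21 chromosomes were below 1 for xChIP H1.5. Each xxChIP list was below 1 on 15 of 21 chromosomes, and the genes of chromosome 8 had the lowest ratios, 0.566 for H1.2 and 0.568 for H1.5. The differences between lists are of the order of the spread of each list over chromosomes. All lists were measured on the same chromosomes, so that spread does not measure a difference between lists. The order of the lists depended on the measure. With covered bases xChIP H1.2 had the lowest ratio, and with peak centres it was xChIP H1.5 (0.885), against 0.913 for H1.2 in that protocol and 0.971 (H1.2) and 0.970 (H1.5) with xxChIP. Both xChIP ratios by peak centres lay within 1 SD of 1.

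Genes far from gene-free sequence were counted at a ratio of at least 1.5 or at most 1/1.5. At least 1.5 was reached by 16 of the 308 genes for xChIP H1.2 (5.19%), where 27.9% of the 11215 protein-coding genes reached it. For xChIP H1.5 it was 9 genes (2.92%), against 15.8% of all. For xxChIP H1.2 it was 16 genes (5.19%, against 7.69%) and for xxChIP H1.5 23 genes (7.47%, against 6.66%), both near the share of all genes. At the other end, 161 long genes (52.3%) were at most 1/1.5 times as covered by xChIP H1.2 as gene-free sequence, against 35.5% of all genes, and 125 (40.6%) by xChIP H1.5, against 45.1%. For xxChIP H1.2 there were 83 such genes (26.9%, against 58.7%), and for xxChIP H1.5 104 (33.8%, against 66.8%). Most of the 11215 genes are far shorter than the 308, so that part of the differences between these shares can come from gene size, which was not tested.

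The distance from gene-free sequence depended on base composition. In stretches of the long genes with a GC content of 35% or 36%, xChIP H1.2 peaks covered 11.8%, against 15.2% in gene-free sequence, and xxChIP H1.2 peaks covered 27.9%, against 33.5%. In stretches of 44% to 47%, xChIP H1.2 peaks covered 21.0% of the bodies and 43.3% of gene-free sequence, a ratio of 0.486. The xChIP H1.5 ratio there was 0.533, with 10.3% against 19.3%. The xxChIP lists stood at 1.03 for H1.2 and 1.12 for H1.5 in these stretches, which made up 19.3 Mb of the bodies, against 54.8 Mb for the former. In the 9.25 Mb with a GC content of 48% or more, the xChIP ratios were 0.611 (H1.2) and 0.553 (H1.5) and the xxChIP ratios 0.970 and 1.19. Both xChIP ratios were lowest at 44% to 47%, and in every bin from 41% upwards they were below those of the bins of lower GC content. These GC bins were chosen after values were seen.

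Bodies were also set against their flanks, taken as 250 kb on each side. Flank coverage with xChIP was 23.7% for H1.2 and 16.1% for H1.5, so the bodies had 0.642 and 0.836 times the coverage of their flanks. The body was below its own flanks in 239 of 308 genes for xChIP H1.2 (77.6%, against 59.2% of the 11215 genes) and in 208 for xChIP H1.5 (67.5%, against 62.4%). In xxChIP the H1.2 coverage of the flanks was 22.05%, a body to flank ratio of 1.05, with 142 genes below their flanks (46.1%, against 62.5%). For xxChIP H1.5 the flanks were covered to 19.1%, a ratio of 1.00, with 160 genes below (51.9%, against 64.3%). The shares of the 11215 genes below gene-free sequence and below their flanks were added after values were seen, and gene size may bear on them. Over chromosomes the ratio was 0.663 ± 0.156 (SD, H1.2) and 0.862 ± 0.101 (H1.5) with xChIP, and 1.08 ± 0.146 (H1.2) and 1.04 ± 0.124 (H1.5) with xxChIP. Both xxChIP ratios lie within 1 SD of 1, and leaving out flank bases inside protein-coding genes took them to 0.949 and 0.903, so no direction is given for them. The xChIP ratios came within 1 SD of 1 with peak centres as the measure (0.873 and 0.924), and that of H1.5 also as a mean over genes (0.936), so their distance from 1 depends on the measure. The flanks had a GC content of 40.0% and were themselves below gene-free sequence of the same GC content, at 0.911, 0.875, 0.899 and 0.883 times in the order of lists above.

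Along the genes, coverage differed less between the parts of a list than between the protocols for its antibody. Each gene was divided into 10 equal parts from start to end. For xChIP H1.2 the highest part was part 1 (17.5%) and the lowest part 5 (13.5%), and for xChIP H1.5 they were part 2 (15.0%) and part 7 (12.4%). For xxChIP H1.2 the highest was part 3 (26.1%) and for xxChIP H1.5 part 4 (20.3%), and in both xxChIP lists part 10 was the lowest, at 19.7% and 16.9%. The ratio of part 1 to parts 2 to 10 was 1.17 (H1.2) and 1.10 (H1.5) with xChIP, and 0.968 (H1.2) and 0.998 (H1.5) with xxChIP. Over chromosomes it was 1.19 ± 0.371 (SD), 1.11 ± 0.276, 0.932 ± 0.138 and 0.982 ± 0.196 in that order, so each mean lay within 1 SD of 1. Without the first 10 kb of the gene the xxChIP ratios were 1.02 and 1.05.

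Single genes did not all follow the pooled profile. With xChIP, part 1 was the highest part in 47 (H1.2) and 46 (H1.5) of 308 genes and the lowest in 30 of each list. With xxChIP, part 10 was the lowest part in 54 (H1.2) and 53 (H1.5) genes and the highest in 25 and 23. These counts were not made for shorter genes. Part 1 was covered less than the mean of the other parts in 166 of 308 genes for xChIP H1.2 (53.9%), against 48.5% of the 11215 protein-coding genes. It was so in 170 genes for xChIP H1.5 (55.2%, against 61.4%), in 178 for xxChIP H1.2 (57.8%, against 65.8%) and in 174 for xxChIP H1.5 (56.5%, against 64.2%). Parts of shorter genes span fewer bases, so the shares of the 308 genes and of all genes are not on the same footing.

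**Figure D3:**
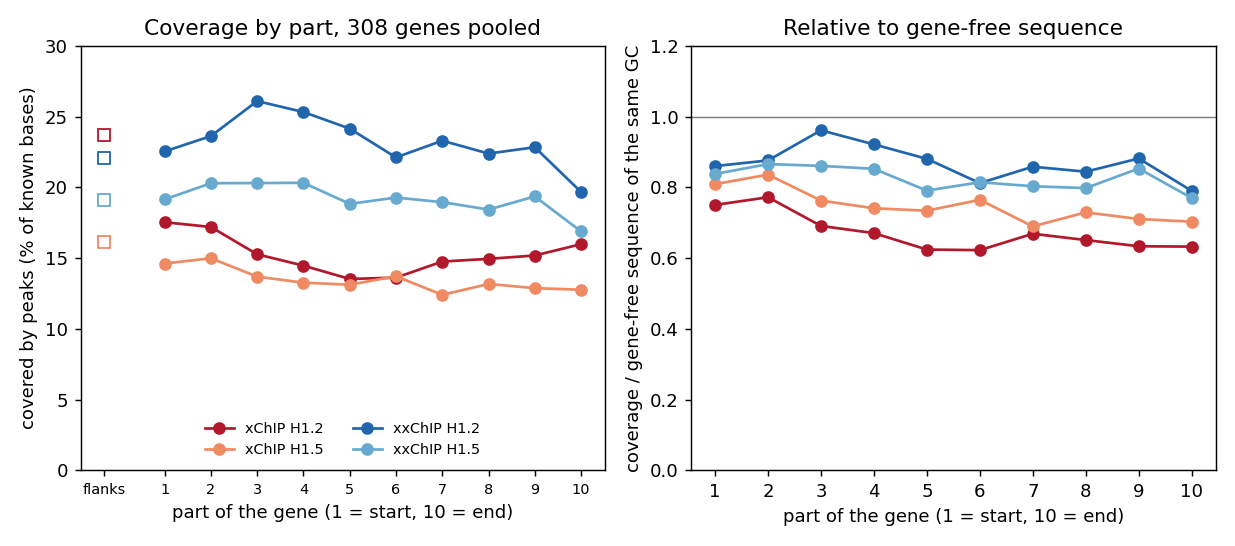
Left, percentage of known bases covered by peaks of each list in 10 equal parts of the 308 genes pooled, from start to end, with open squares for the flanks; right, the same divided by gene-free sequence of the same GC content, with a grey line at 1. All 10 parts of each list lie below 1, from 0.622 for xChIP H1.2 in part 6 to 0.961 for xxChIP H1.2 in part 3.

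The first 1 kb and the last 10 kb of the long genes were covered less than their bodies as a whole in all 4 lists. In the first 1 kb of the genes xChIP H1.2 peaks covered 13.5%, xChIP H1.5 peaks 5.80%, xxChIP H1.2 peaks 6.42% and xxChIP H1.5 peaks 7.43%, the lowest step of 1 kb within 20 kb of the start in each list. That step had a GC content of 56.8%, and the part of base composition was not tested. Over the first 10 kb the values were 15.5%, 11.8%, 14.5% and 12.0%, against 19.6%, 13.0%, 22.1% and 20.1% in the next 10 kb. At the other end, the last 10 kb were covered to 13.2%, 9.48%, 13.7% and 12.9%. Coverage 10 to 20 kb past the end was 23.3%, 15.9%, 22.4% and 20.6%.

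**Figure D4:**
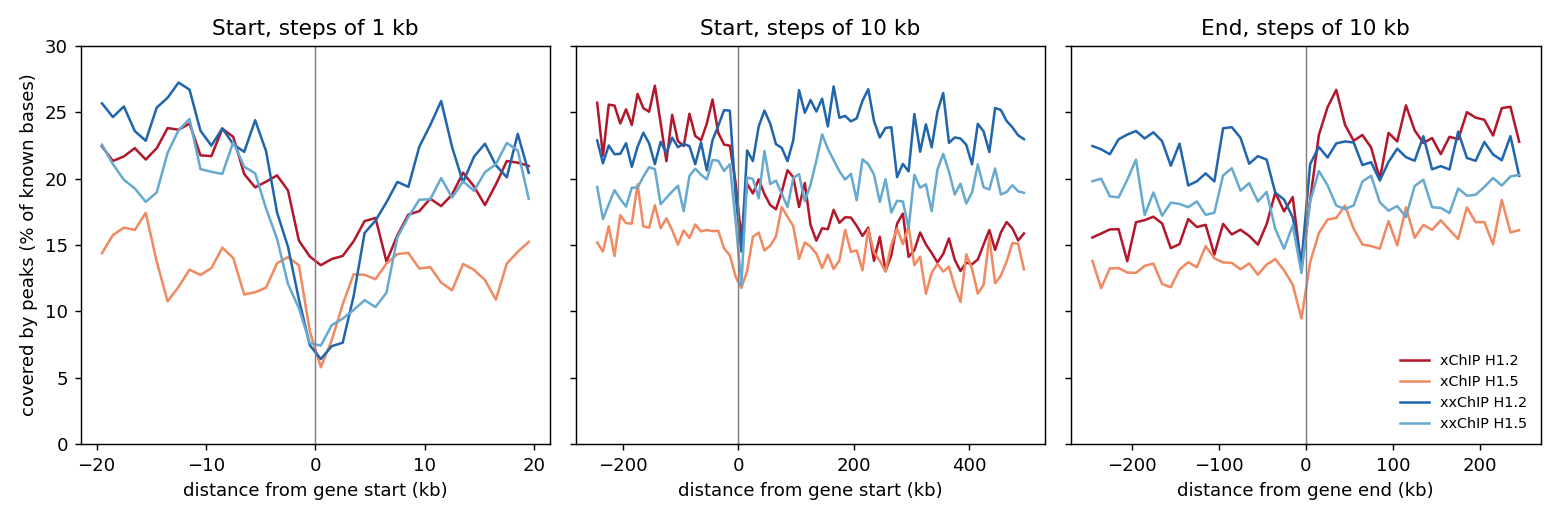
Percentage of known bases covered by peaks of each list against the distance in kb from the start (left, steps of 1 kb; middle, steps of 10 kb) and from the end (right, steps of 10 kb) of the 308 genes, with negative distances before that point and a grey line at 0. All 4 lists have their lowest 1-kb step just after the start, from 5.80% for xChIP H1.5 to 13.5% for xChIP H1.2.

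Exons inside the long genes were covered less than introns by every list. With 10 kb at each gene end left out, exons amounted to 2.58 Mb and introns to 247 Mb. Exons were covered to 8.90% and introns to 15.3% by xChIP H1.2, and to 9.15% and 13.6% by xChIP H1.5. For xxChIP H1.2 the values were 13.0% and 23.5%, and for xxChIP H1.5 11.2% and 19.4%. Exon coverage was 0.580, 0.674, 0.554 and 0.574 times that of introns, in the order of lists above. Exons had a GC content of 43.7% and introns of 38.7%, and the part of base composition in this difference was not tested. The division without gene ends was chosen after values were seen.

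Peak numbers and lengths were set against all 993 Mb of known bases outside genes, without the windows and without matching for GC content. The long genes held somewhat fewer xChIP peaks per Mb than gene-free sequence, about as many xxChIP peaks, and a smaller share of peak bases in long peaks. With xChIP there were 43.8 (H1.2) and 45.2 (H1.5) peaks per Mb, against 50.0 and 51.5 in gene-free sequence, and with xxChIP there were 54.3 (H1.2) and 54.4 (H1.5), against 53.7 and 53.3. Peaks of 20 kb or more held 13.2% of peak bases in the bodies for xChIP H1.2, against 28.7% in the flanks and 38.6% in gene-free sequence. For xChIP H1.5 it was 5.52%, against 9.42% and 12.4%. For xxChIP H1.2 it was 17.0%, against 16.8% in flanks and 21.6% in gene-free sequence, and for xxChIP H1.5 7.75%, against 8.42% and 13.5%. The longest peak centred in a long gene was 106 kb in GALNTL6, a gene of the GalNAc-transferase family (xxChIP H1.2, chr4:173579045-173685503). The longest of xChIP H1.2 was 104 kb, centred in CDKAL1, which encodes a tRNA-modifying enzyme (chr6:20494118-20597983). The longest peaks were named after their values were seen.

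Bases without a peak in any list made up 52.2% of the long genes. The share was 46.8% in their flanks and 42.7% in the same 993 Mb outside genes. It was 47.5% in the other protein-coding genes, taken here as those of 20 kb to below 500 kb. Peaks of xChIP lists alone covered 15.1% of the bodies and peaks of xxChIP lists alone 24.6%, whereas in the flanks these shares were level, at 21.8% and 21.7%. Bases covered in both protocols made up 8.02% of the bodies and bases covered in all 4 lists 0.510%. The other protein-coding genes had 8.32% and 0.491%, and gene-free sequence 10.7% and 1.11%. Of bases covered by either list of a protocol, both lists covered 24.2% for xChIP and 30.5% for xxChIP. Of bases covered in either protocol for an antibody, both protocols covered 9.77% for H1.2 and 9.74% for H1.5. In the other protein-coding genes these shares were 24.5% (xChIP), 25.4% (xxChIP), 10.0% (H1.2) and 8.80% (H1.5). Gene-free sequence had 29.4%, 34.3%, 11.5% and 11.9%. For xChIP and for H1.2 the long genes were thus near the other genes, and for xxChIP and for H1.5 between both sets.

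Among single genes the peak-free share ran from 25.9% in CEP112 to 78.6% in NCKAP5, with a median of 50.9%. NCKAP5 also held the longest stretch of sequence without a peak of any list and without an assembly gap, 84.0 kb. Only DOCK1, SH3RF3 and DPP6 had a longer one, of 100 kb or more, and there nearly all of it was an assembly gap. These stretches were looked at after other values were seen.

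The genes at the top of the xChIP H1.2 list were not those at the top of the xxChIP lists. CALN1, a calcium-binding protein gene, had the highest xChIP H1.2 coverage at 60.1%, against 18.9% for H1.5 in the same protocol, and had 18.3% (H1.2) and 17.0% (H1.5) with xxChIP. GALNT17, a gene of the GalNAc-transferase family, followed with 56.0%, 20.7%, 18.4% and 12.9%. STXBP5L, a syntaxin-binding protein gene, had 48.9%, 38.8%, 22.5% and 22.1%, and was the highest gene of xChIP H1.5. The first pair also had the largest differences between H1.2 and H1.5 within xChIP, 41.2 percentage points in CALN1 and 35.3 in GALNT17. The excess of xChIP over xxChIP for H1.2 was also largest in these genes, at 41.8 and 37.6 percentage points. Their flanks had xChIP H1.2 coverage of 75.7% and 57.2%. STXBP5L stood furthest above gene-free sequence of its GC content, at 3.00 for xChIP H1.2, against 1.65 for CALN1 and 1.43 for GALNT17.

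CALN1 and GALNT17 are neighbours on chromosome 7, 65.9 kb apart, and AUTS2 lies 339 kb before them. AUTS2, a gene of neural development, was covered to 10.97% by xChIP H1.2, although its flanks reached 66.3%. Its xxChIP H1.2 coverage was 24.2%, above that of both neighbours. The high xChIP H1.2 coverage beside AUTS2 was thus not shared by its body. AUTS2 was named here after its values were seen.

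Next to STXBP5L, the highest genes of xChIP H1.5 were DOCK3, which encodes an activator of a small GTPase (34.02%), and SUMF1, which encodes a sulfatase-modifying enzyme (32.6%). DOCK3 had 47.5% for xChIP H1.2, but with xxChIP 12.1% (H1.2) and 16.2% (H1.5). DOCK3 and CCDC171 had the largest excess of xChIP over xxChIP for H1.5, 17.8 and 17.7 percentage points. Genes with more xChIP H1.5 than xChIP H1.2 differed less, with -10.7 percentage points for H1.2 minus H1.5 in SEMA3A, an axon guidance gene (14.3% and 25.0%), and -10.6 in LAMA2, a laminin chain (11.2% and 21.8%).

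The xChIP lists shared FBXL17 and MAST4 among their 3 lowest genes. CA10, a gene related to the carbonic anhydrases, had the lowest xChIP H1.2 coverage, 3.08%, followed by FBXL17, an F-box protein gene (3.88%), and MAST4, a kinase gene (3.91%). FBXL17 (4.48%), MAST4 (4.55%) and the RNA-binding protein gene CELF2 (4.57%) were the lowest of xChIP H1.5. MAST4 was also low in the xxChIP lists, at 9.61% and 9.70%. CA10 was not, since its xxChIP values of 46.5% (H1.2) and 34.9% (H1.5) were among the 3 highest values of either list.

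CEP112, which encodes a centrosomal protein, was the most covered gene of both xxChIP lists, with 59.8% for H1.2 and 45.5% for H1.5. Its xChIP coverage was 9.26% (H1.2) and 13.2% (H1.5), and its flanks had 8.32% (H1.2) and 11.4% (H1.5) with xxChIP. The high xxChIP coverage of CEP112 was thus not shared by the sequence around it. It had the largest excess of xxChIP over xChIP among the 308 genes, with -50.6 percentage points for xChIP minus xxChIP in H1.2 and -32.3 in H1.5. CA10, on the same chromosome, came next with -43.4 and -28.4. GRIN2B, an NMDA receptor subunit, had 48.2% for xxChIP H1.2, 29.7% for xxChIP H1.5 and 7.16% for xChIP H1.2. Against gene-free sequence of its GC content GRIN2B, and not CEP112, had the highest xxChIP H1.2 ratio of the 308 genes, at 2.16. PDE10A, a phosphodiesterase gene, had 38.03% for xxChIP H1.5 and 34.1% for xxChIP H1.2.

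At the bottom of the xxChIP lists stood GSE1, with 1.93% for H1.2 and 3.24% for H1.5. Its GC content of 56.6% was well above the 38.8% of all members, and xChIP H1.2 covered it to 37.6%. Against gene-free sequence of its own GC content, GSE1 stood for H1.2 at 0.250 with xxChIP and 0.819 with xChIP. The transcription factor gene FOXP1 had xxChIP coverage of 3.51% (H1.2) and 5.09% (H1.5), and MCTP1, a C2-domain protein gene, had 4.74% and 9.49%. In the xxChIP H1.5 list SBF2, a gene of the myotubularin family, had 4.69% and VPS13B, which encodes a lipid transfer protein, had 5.02%. Between the xxChIP lists, the excess of H1.2 was largest in IQCM (46.4% and 27.2%) and GRIN2B, at 19.2 and 18.5 percentage points. H1.2 minus H1.5 was -10.3 in TTC28 (23.3% and 33.6%) and -9.10 in the glutamate receptor gene GRID1 (17.8% and 26.9%).

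**Figure D5:**
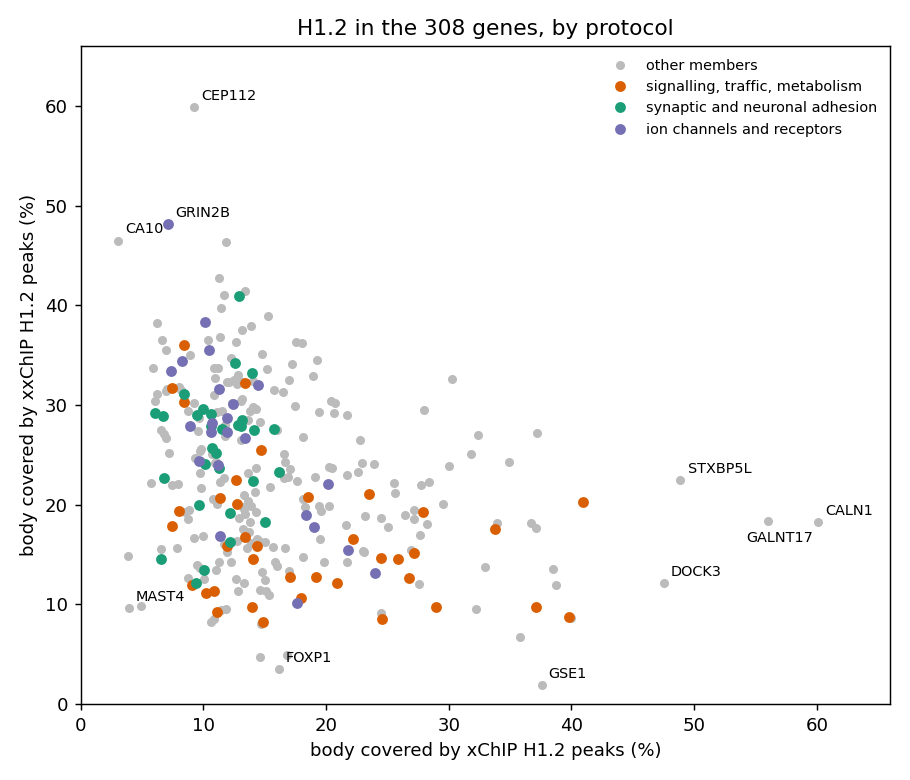
Percentage of each of the 308 bodies covered by xxChIP H1.2 peaks against the percentage covered by xChIP H1.2 peaks, a point per gene, with 3 role lists in colour. CALN1 lies at 60.1% on the horizontal axis and 18.3% on the vertical axis, CEP112 at 9.26% and 59.8% (Pearson r over all 308 genes, -0.312).

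Over the 308 genes the lists of a protocol were more alike than the lists of an antibody. The Pearson correlation of body coverage was 0.811 between the xxChIP lists and 0.573 between the xChIP lists (Spearman 0.807 and 0.503). For H1.2 it was -0.312 across protocols, and for H1.5 it was 0.0973. With GC content it was 0.398 (H1.2) and -0.265 (H1.5) with xChIP, and -0.409 (H1.2) and -0.154 (H1.5) with xxChIP. Coverage of a body and of its own flanks correlated at 0.633 (H1.2) and 0.332 (H1.5) with xChIP, and at 0.553 (H1.2) and 0.499 (H1.5) with xxChIP. Points share base composition, neighbourhood and, in the overlapping pairs, bases, so these values describe the 308 genes and are not independent observations.

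Members were also grouped by role, in 8 lists that held 134 of the 308 genes, while 174 genes were in none. The list of adhesion genes also held scaffold genes of cell contacts such as DLG2, and the list of channels and receptors also held 3 adhesion-type G protein-coupled receptors. Adhesion and scaffold genes of synapses and neurons (30 members) had medians of 11.1% (H1.2) and 12.3% (H1.5) with xChIP, and 27.5% (H1.2) and 20.0% (H1.5) with xxChIP, where all 308 genes had 13.5%, 13.0%, 22.4% and 19.2%. Of these 30 genes, 6 (H1.2) and 9 (H1.5) were above the xChIP median of all members, and 22 (H1.2) and 18 (H1.5) above the xxChIP median. At matched GC content their medians were 0.570, 0.685, 0.895 and 0.800 times gene-free sequence, where all members had 0.648, 0.719, 0.889 and 0.801. So measured, they were level with all members in the xxChIP lists. PTPRD had 8.45% for xChIP H1.2 and 31.1% for xxChIP H1.2, and LSAMP, an adhesion molecule of neurons, 10.6% and 27.9%. NRXN3, a presynaptic adhesion molecule, was low in both, at 6.52% and 14.5%. The genes of this list were long, with a median span of 1144 kb, and of lower GC content than all members, 37.7% against 38.8%.

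Ion channels and receptors (23 members) had medians of 11.4%, 11.7%, 27.3% and 21.8% in the same order of lists. Of the 23, 16 (H1.2) and 17 (H1.5) were above the xxChIP median of all members, and 7 in each xChIP list. The GC content of these genes was 38.9%, near that of all members, and their median ratios to gene-free sequence were 0.538, 0.642, 1.01 and 1.02. The 6 cadherins had medians of 10.4%, 12.4%, 29.0% and 20.7%, and CDH13 among them had 6.58% for xChIP H1.2 and 15.5% for xxChIP H1.2. The 4 giant receptors of the CSMD and LRP families had 9.95%, 12.1%, 22.98% and 17.0%, with LRP1B at 31.4% and CSMD1 at 13.5% for xxChIP H1.2. At matched GC content the medians were 0.681, 0.742, 0.969 and 0.827 for the cadherins and 0.543, 0.756, 0.753 and 0.612 for the giant receptors.

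Signalling, traffic and metabolism genes (38 members) had medians of 14.8% (H1.2) and 13.5% (H1.5) with xChIP, and 15.5% (H1.2) and 12.9% (H1.5) with xxChIP. Above the median of all members were 23 (H1.2) and 21 (H1.5) of the 38 in the xChIP lists and 6 in each xxChIP list. At matched GC content their medians were 0.650, 0.708, 0.660 and 0.586 times gene-free sequence, near those of all members in the xChIP lists and lower in the xxChIP lists. FAF1, an apoptosis-related adaptor, had H1.2 coverage of 40.96% with xChIP and 20.3% with xxChIP, and TRAPPC9, a subunit of a vesicle tethering complex, had 39.8% and 8.72%. PRKG1, a cGMP-dependent kinase, was the other way round, with 8.43% and 36.02%, as was DPYD, an enzyme of pyrimidine breakdown, with 7.45% and 31.7%. Expression of these genes was not analysed here.

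Transcription and chromatin factors (20 members) had medians of 12.5%, 10.6%, 20.3% and 17.8%, with FOXP1 at the bottom for xxChIP H1.2 and CAMTA1 at the top for xChIP H1.2 (29.5%). Their ratios to gene-free sequence were 0.523, 0.580, 0.848 and 0.747. The 5 RNA-binding protein genes had 12.2%, 10.5%, 14.3% and 16.6%, with ratios of 0.438, 0.587, 0.703 and 0.947, the last above that of all members although the coverage was below. RBFOX1 among them had 12.2%, 4.77%, 14.3% and 16.6%, and RBMS3 11.9%, 10.5%, 9.51% and 8.50%. The list of genes at common fragile sites had 14 members, 3 of them also adhesion genes, and LRP1B, AUTS2 and RBFOX1 were in other role lists too. These 14 genes had 12.0%, 12.2%, 28.2% and 20.7%, with ratios of 0.501, 0.675, 0.972 and 0.894. They were not uniform, since MACROD2, an ADP-ribose hydrolase gene, had 31.8% for xxChIP H1.2 but the tumour suppressor genes FHIT and WWOX had 13.6% and 8.25%. Lists of this size were described by counts and medians and were not tested.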

How the data were processed

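H1.2 and H1.5 enrichment was measured in 12 immunoprecipitated samples, grouped by protocol and antibody as in the sample labels. Paired-end reads were aligned by the authors with Bowtie2 (hg19, up to 2 mismatches, uniquely mappable reads kept), and MUSIC with its default settings called peaks, which were then merged over the 3 replicates. The values deposited by the authors are the start and end positions of these merged peaks, without a score, so the depth and the number of replicates behind a peak are unknown. Merging can lengthen peaks. The versions of Bowtie2 and MUSIC are not given in the sources used here.

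Gene records came from GENCODE 44 lifted to GRCh37, the assembly of hg19. Covered bases were counted over known bases in gene bodies, in 10 strand-oriented parts, in flanks of 250 kb on each side and in 10-kb windows. Flanks could overlap other genes, long ones included. Gene-free windows with at least 50% known bases were grouped by GC content in steps of 1%, with at least 50 windows per class, and bases outside the range of these classes took the nearest class. Ratios were pooled over bases. No test was made, because only the single merged list of each group was used. The counting and expectation steps were tested on simulated data. Python 3.11.15, numpy 2.4.6, pandas 2.3.3 and matplotlib 3.10.9 were used.

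The genes named were the 5 longest, the 3 highest and 3 lowest of each list, the 2 with the largest difference in each direction between antibodies or protocols, the 2 genes on each side of the length limit, and members of the role lists. The members and lists were chosen with earlier results of these data known. Length classes, GC bins, the exon and intron division, peak-free stretches, the order of lists in each gene, the longest peaks, the neighbours on chromosome 7 and the rule for the sequences shown were chosen after values were seen. Alternatives changed the gene length, the window, the gene-free sequence, the flank, the gene start, the averaging, the minimum peak length, the measure and the treatment of overlaps. The 6 Input samples, chromosomes X and Y and the reads were not analysed for the 308 genes.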

Additional observations from a re-analysis of the deposited data

Results flagged for a closer look

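In the bodies of the 308 genes, some ratios lay on opposite sides of 1 in the protocols for the same antibody. Body coverage over flank coverage was 0.642 for xChIP H1.2 and 1.05 for xxChIP H1.2, and 0.836 for xChIP H1.5 and 1.00 for xxChIP H1.5. Coverage of part 1 over parts 2 to 10 was 1.17 for xChIP H1.2 and 0.968 for xxChIP H1.2, and 1.10 for xChIP H1.5 and 0.998 for xxChIP H1.5. Each value comes from a single merged list, and these differences were not tested. Both xxChIP H1.5 values and the xxChIP H1.2 values lie close to 1, and each is found on the other side of 1 under some of the settings tried.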

How the results depend on the processing

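Of 100 alternatives, 87 kept the side of 1 and moved the ratio by less than 1 SD over the 21 chromosomes. That SD was used because the merged lists hold no replicates and a binomial interval over bases would be far narrower. Body coverage over gene-free sequence kept its side of 1 in all 36 alternatives, with xChIP from 0.598 to 0.913 (H1.2) and 0.695 to 0.885 (H1.5), and with xxChIP from 0.849 to 0.971 (H1.2) and 0.786 to 0.970 (H1.5). It moved further only with peak centres counted for xChIP H1.2 (0.913), as did body over flank coverage of that list (0.873). Body over flank coverage came to the other side of 1 in 4 of 32 alternatives. These were flank bases inside protein-coding genes left out (xxChIP 0.949 for H1.2 and 0.903 for H1.5), peak centres for xxChIP H1.2 (0.999986) and flanks of 100 kb for xxChIP H1.5 (0.989). Part 1 over parts 2 to 10 did so in 7 of 32. For xxChIP H1.2 these were peak centres (1.02) and the first 10 kb left out (1.02). For xxChIP H1.5 they were a span of at least 400 kb (1.00368) or 1 Mb (1.04), peak centres (1.00109), the first 10 kb left out (1.05) and parts set against gene-free sequence (1.02). The cause was not tested. Depth is unknown, so what it limits cannot be given. No paired analysis was made, because only the merged list of each group was used and the reads of the replicates were not analysed.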

Other observations

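On chromosome X, which the choice of members left out, 13 protein-coding genes had a span of 500 kb or more. Pooled over their bases, they were covered to 8.07% (H1.2) and 9.14% (H1.5) with xChIP, and to 13.9% (H1.2) and 10.5% (H1.5) with xxChIP, where the 308 genes had 15.2%, 13.5%, 23.2% and 19.2%. The longest of them, the dystrophin gene DMD (2242 kb), had 5.64%, 8.06%, 13.1% and 12.2%. AFF2, a gene of 500.1 kb, had no bases in a peak of xChIP H1.2, xxChIP H1.2 or xxChIP H1.5, and 1.86% in xChIP H1.5. These values were looked at after those of the members, were not set against gene-free sequence of chromosome X, and the difference was not tested.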
